A study of Mus musculus with 4 samples.

Results

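The 94 genes described here are the nuclear genes of mouse oxidative phosphorylation. They are all protein-coding genes whose symbol starts with Nduf, Uqcr, Atp5 or Cox4 to Cox8, together with Sdha, Sdhb, Sdhc, Sdhd and Cycs, and they were taken from the 30731 genes listed in all 4 count tables. Of the 94, 36 encode subunits of complex I, 8 assembly factors of complex I, 4 complex II, 8 complex III, 20 complex IV and 16 complex V, 1 encodes cytochrome c, and 1, Atp5s, carries the Atp5 name without being an integral subunit. The rule uses symbols and gene type and no level or fold, except that the 13 mitochondrially encoded subunits were left out because they had no counts in ILC2 or NK cells.

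The libraries covered 3 types of innate lymphoid cell from the mouse. MNK-3 is an ILC3-like cell line labelled as wild type; it originated in thymocytes of day 15 fetuses of the NIH-Swiss strain, was cultured with IL-15 and IL-7 at 10 ng/ml, and has 2 libraries. ILC2 were wild-type cells from the bone marrow of pooled C57BL/6 mice of 8 to 12 weeks, expanded with IL-33, IL-25, IL-7 and IL-2 at 10 ng/ml, with 1 library. NK cells, labelled as ILC1, came from the spleen of pooled wild-type C57BL/6 mice of 8 to 12 weeks, with 1 library and no stated culture. Cell type therefore cannot be told apart from tissue or culture, and for MNK-3 also not from strain, from growth as a line or from the gene set counted. The labels mention technical replicates and do not call the MNK-3 pair separate cultures, so its spread may be technical.

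Oxidative phosphorylation takes place in the inner mitochondrial membrane. Complex I oxidises NADH and complex II, which is also the succinate dehydrogenase of the citric acid cycle, oxidises succinate; both pass electrons through ubiquinone to complex III. Cytochrome c carries them on to complex IV, which reduces oxygen, and complex V, the ATP synthase, uses the proton gradient to make ATP. Complexes I, III, IV and V combine nuclear with mitochondrially encoded subunits, whereas complex II is wholly nuclear. In lymphocytes this machinery is known to be expanded on activation and growth.

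Promoters of respiratory genes are known as targets of the factor NRF1, so the sequences around its motif are shown first. RefSeq (GRCm38.p6) gave a window from 250 bases before to 50 bases after a start site for 75 of the 94 genes, 80 windows in all. The NRF1 motif, GCGCANGCG on either strand, was present in 30% of these windows and in 8.58% of the 21263 windows of 17492 protein-coding genes. One stretch of 33 bases per complex or role follows, with a second one for complex V and the matched 9 bases in capitals, from the windows of Ndufa6 at chr15:82354242-82354541 on the minus strand, Sdhd at chr9:50603800-50604099 on the minus strand, Uqcrc1 at chr9:108936398-108936697 on the plus strand, Cycs at chr6:50566520-50566819 on the minus strand, Cox6a1 at chr5:115348909-115349208 on the minus strand, Atp5c1 at chr2:10080383-10080682 on the minus strand and Atp5g3 at chr2:73911277-73911576 on the minus strand.
Ndufa6: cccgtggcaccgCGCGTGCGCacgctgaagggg
Sdhd: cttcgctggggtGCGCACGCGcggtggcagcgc
Uqcrc1: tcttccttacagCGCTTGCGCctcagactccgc
Cycs: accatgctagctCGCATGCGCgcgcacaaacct
Cox6a1: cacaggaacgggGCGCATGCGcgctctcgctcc
Atp5c1: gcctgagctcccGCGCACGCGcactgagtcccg
Atp5g3: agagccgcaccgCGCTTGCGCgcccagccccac

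By complex, the NRF1 motif was in 9 of 34 windows of complex I, 2 of 3 of complex II, 2 of 5 of complex III, 1 of 14 of complex IV and 7 of 16 of complex V. The GABP motif CCGGAAG was in 22.5% of the members' windows and 11.6% of all windows. The YY1 motif AAGATGGCG was in 10.0% and 1.83%, and the ERR alpha motif AAGGTCA in 10.0% and 4.08%. The shares were close for the SP1 motif GGGCGG, at 43.8% and 46.2%, and for the E-box CACGTG, at 7.5% and 7.84%. Both strands were searched, windows of 1 gene can overlap, and the median G and C content was 58.0% in the members' windows and 56.3% in all.

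The windows of Sdha, Uqcrfs1 and Atp5b are given whole, because these were the members that passed the test between cell types below. Capitals mark NRF1, GABP, YY1 and ERR alpha motifs. Sdha holds 3 NRF1 matches, and no such letters are in the windows of Uqcrfs1 and Atp5b.
Sdha (chr13:74350191-74350490, minus strand): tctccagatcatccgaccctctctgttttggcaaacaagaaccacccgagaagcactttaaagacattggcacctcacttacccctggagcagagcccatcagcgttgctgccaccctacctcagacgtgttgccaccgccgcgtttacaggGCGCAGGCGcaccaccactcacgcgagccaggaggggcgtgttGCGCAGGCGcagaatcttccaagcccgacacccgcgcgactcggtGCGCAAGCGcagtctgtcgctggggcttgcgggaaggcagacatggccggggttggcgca
Uqcrfs1 (chr13:30545267-30545566, minus strand): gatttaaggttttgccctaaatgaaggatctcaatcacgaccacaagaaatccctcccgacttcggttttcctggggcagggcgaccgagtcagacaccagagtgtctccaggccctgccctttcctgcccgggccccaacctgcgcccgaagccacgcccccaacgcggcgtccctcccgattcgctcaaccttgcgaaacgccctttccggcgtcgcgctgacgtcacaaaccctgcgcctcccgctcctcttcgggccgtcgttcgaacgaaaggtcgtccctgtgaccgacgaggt
Atp5b (chr10:128083057-128083356, plus strand): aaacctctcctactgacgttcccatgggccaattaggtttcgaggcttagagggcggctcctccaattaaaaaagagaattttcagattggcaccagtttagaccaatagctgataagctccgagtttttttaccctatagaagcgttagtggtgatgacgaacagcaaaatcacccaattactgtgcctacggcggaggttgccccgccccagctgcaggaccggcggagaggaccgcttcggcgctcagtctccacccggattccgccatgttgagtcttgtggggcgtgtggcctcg

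Reads in the shared genes came to 25617762 and 15177345 in MNK-3 replicates 1 and 2, 9298162 in ILC2 and 4637812 in NK, and values are given as CPM, which are counts scaled to a total of 1000000 per library. MNK-3 replicate 1 stood apart: 75.8% of its reads were assigned to no counted feature, against 23.1% to 47.1% in the other libraries. Where these reads lay is not given. The 17913 genes under 1 CPM in replicate 2 had a median of 1.72 CPM in replicate 1. Summed levels of marker lists of 6 genes each followed the labels, with ILC3 markers at 2194 and 3203 CPM in MNK-3, 364 in ILC2 and 99.6 in NK, ILC2 markers at 148 and 99.3 in MNK-3, 5566 in ILC2 and 133 in NK, and NK markers at 75.5 and 53.4 in MNK-3, 18.6 in ILC2 and 7209 in NK. T cell markers summed to 111 and 5.21 CPM in MNK-3, 11.9 in ILC2 and 31.5 in NK, and myeloid markers to 29.6 and 2.7 in MNK-3, 13.2 in ILC2 and 245 in NK, with 4 of 6 at 0 in MNK-3 replicate 2 and 2 of 6 in NK. By group means, only 1 of the 6 myeloid markers reached 10 CPM in MNK-3 or NK, and it was lower in MNK-3 (log2 ratio -6.50). B cell markers stayed at or under 40.4 CPM and erythroid markers at or under 32.6 CPM in each library. The part of other cells in the members' values was not tested.

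Together the 94 genes took 0.646% and 0.780% of reads in MNK-3, 0.844% in ILC2 and 0.516% in NK. Exact 95% intervals, which cover counting error only, reached from 0.643% to 0.649% and from 0.776% to 0.785% in MNK-3, from 0.838% to 0.850% in ILC2 and from 0.510% to 0.523% in NK. The summed level was thus highest in ILC2 and lowest in NK, with both MNK-3 libraries between. With trimmed means the sums became 4606 and 9202 in MNK-3, 10366 in ILC2 and 4993 in NK, and with medians of ratios 3380 and 9416 in MNK-3, 11168 in ILC2 and 5372 in NK, so that MNK-3 replicate 1 fell below NK while ILC2 stayed highest. Under library totals, the mean MNK-3 sum was 1.38 times that of NK and 0.845 times that of ILC2, and the ILC2 sum was 1.64 times that of NK. In bulk RNA, a change in the share of cells that express a gene and a change in RNA per cell cannot be told apart.

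Of the 94 genes, 8 were under 10 CPM in every group, and 86 reached it in at least 1; 92 of the 94 passed the filter on low counts for testing. Among the 86, the order ILC2, then MNK-3, then NK was held by 36 members and the order MNK-3, then ILC2, then NK by 33. ILC2, then NK, then MNK-3 was the order of 8 members, MNK-3, then NK, then ILC2 that of 5, and NK, then ILC2, then MNK-3 that of 4. NK was therefore lowest for 69 of the 86 by group means, and for 71 with trimmed means and 67 with medians of ratios. The shares of all genes in these orders are not given here, so these counts cannot be read as particular to the members.

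MNK-3 was set against NK cells first. Relative to NK, both MNK-3 libraries were higher for 68 of 86 members, where 56.5% of all genes at 10 CPM or more did the same, and both were lower for 11, where 24.8% of all genes were. Both were higher for 46 members with trimmed means and for 21 with medians of ratios, scalings for which the shares of all genes are not given here. At 2-fold or more, 27 of 86 members were higher (36.4% of all genes) and 1 was lower (10.9% of all genes), counting genes at 10 CPM or more in whichever group was higher. The median log2 ratio was 0.60 over the members and 0.88 over the 25283 genes tested, of which most were low; over genes at 10 CPM or more it was 0.61 for the members and 0.58 for all genes. In limma voom, at a Benjamini-Hochberg adjusted p under 0.05, 0 of 92 members were called higher (0.289% of all genes tested) and 0 lower (2.04%). At an unadjusted p under 0.05, 0 were higher and 2 lower, whereas limma trend called 16 higher and 1 lower. For the unadjusted and the limma trend counts the shares of all genes are not given here, so they cannot be read as particular to the members.

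Against ILC2, both MNK-3 libraries were higher for 31 of 86 members (56.9% of all genes) and both lower for 33 (25.1%). With trimmed means these counts were 8 and 43, and with medians of ratios 3 and 50, again without the shares of all genes. At 2-fold or more, 4 of 86 were higher (32.4%), namely Ndufb4, Ndufaf3, Atp5l and Atp5s, and 3 lower (10.2%), namely Ndufs3, Sdha and Uqcrfs1. With MNK-3 replicate 2 left out 6 were lower, and with replicate 1 left out 2 were. The median log2 ratio was -0.03 over the members and 1.12 over all genes tested; at 10 CPM or more it was -0.04 for the members and 0.50 for all genes. In limma voom 0 members were called higher (0.902% of all genes tested; 1 at an unadjusted p under 0.05 and 0 in limma trend), and 3 were called lower (2.37%): Atp5b, Sdha and Uqcrfs1.

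Between the 2 primary cell types, ILC2 exceeded NK for 74 of 82 members at 10 CPM or more (52.6% of all genes). By 2-fold or more, 20 of 82 were higher (22.1%) and 0 were lower (16.8%). The median log2 ratio was 0.67 over the members and -0.26 over all genes tested; at 10 CPM or more it was 0.72 for the members and 0.07 for all genes. One member, Atp5b, was called higher in limma voom (0.479% of all genes tested) and 0 lower (0.819%; 0 also at an unadjusted p under 0.05 and in limma trend). The comparisons share libraries, so they are not independent of each other. Scaling by trimmed means moved the median of all genes tested by -0.20 for MNK-3 over NK, -0.35 for MNK-3 over ILC2 and 0.21 for ILC2 over NK, and scaling by medians of ratios by -0.49, -0.59 and 0.21. Several medians of MNK-3 over ILC2 turned direction with these scalings.

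**Figure D1:**
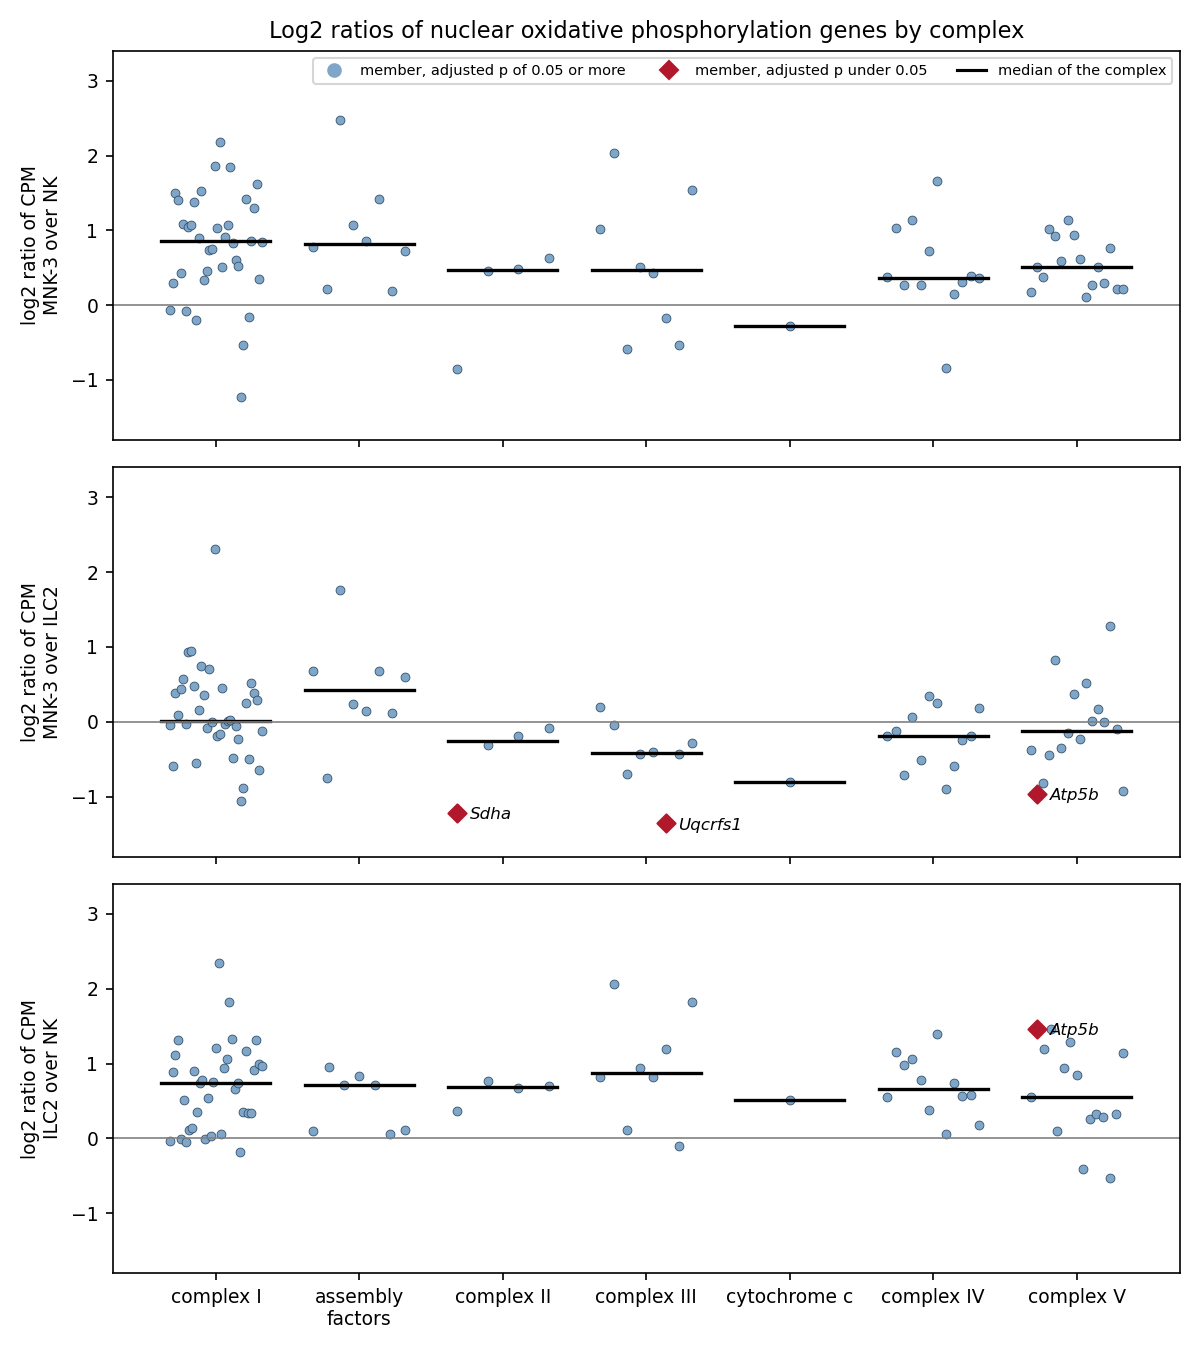
Log2 ratios of CPM (after adding 0.5 CPM) for members at 10 CPM or more in the higher group, in columns by complex, with a panel for each comparison; black lines are medians of a complex and red diamonds are members with an adjusted p under 0.05 in limma voom. Most members lie above 0 against NK in both the MNK-3 and the ILC2 panels, and spread around 0 where MNK-3 is set against ILC2.

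Complex I, the NADH dehydrogenase, took 35.7% and 34.6% of the reads of the 94 genes in MNK-3, 28.9% in ILC2 and 31.4% in NK. The MNK-3 mean of 35.1% ± 0.778 (SD, n = 2) lay above both primary cell types. Complex V took 31.7% and 33.5% in MNK-3, 37.5% in ILC2 and 34.3% in NK, so ILC2 was highest. Complex II took 5.26% and 5.12% in MNK-3, 6.93% in ILC2 and 7.87% in NK, with both MNK-3 libraries lowest. The assembly factors took 3.06% and 2.44% in MNK-3, 1.69% in ILC2 and 1.97% in NK. Complex III, at 8.46% and 8.51% in MNK-3, 9.84% in ILC2 and 8.75% in NK, and complex IV, at 15.1% and 15.5%, 14.5% and 14.9% in the same libraries, differed less. These shares do not depend on how libraries are scaled to each other.

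**Figure D2:**
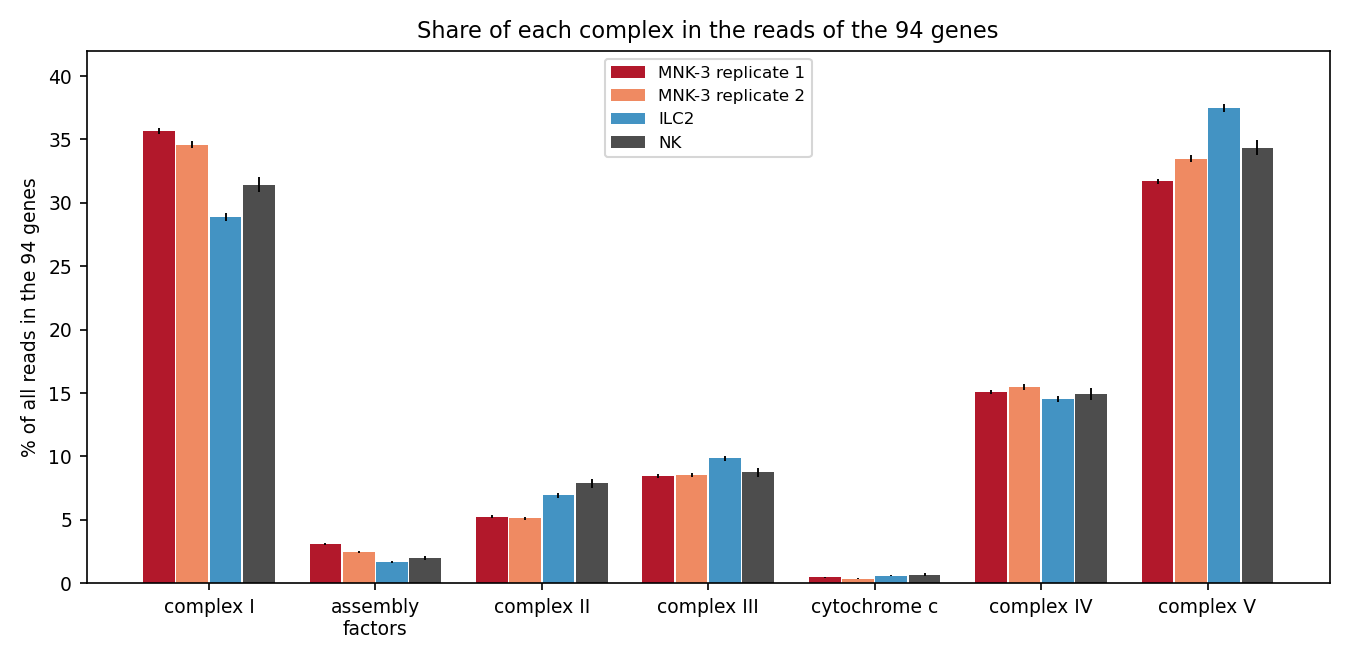
Share of each complex in all reads of the 94 genes (%), with 1 bar per library and exact 95% intervals for counting error; Atp5s is left out. Complex I had its highest bars in MNK-3 (35.7% and 34.6%), complex V in ILC2 (37.5%) and complex II in NK (7.87%).

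Of the 36 complex I subunits, 30 had a higher mean in MNK-3 than in NK, with a median log2 ratio of 0.85. So did 20098 of the 25283 genes tested, so this count cannot be read as particular to complex I. The all-gene median was 0.88, and 0.58 at 10 CPM or more. Against ILC2, 19 subunits were higher and 17 lower in MNK-3, with a median of 0.01. This median became -0.34 with trimmed means and -0.55 with medians of ratios. Of all genes tested, 21043 were higher than in ILC2 and 4240 lower. Their median was 1.12, and that of all genes at 10 CPM or more was 0.50. The 7 conserved core subunits and the 29 accessory subunits had medians of 0.61 and 0.90 in MNK-3 over NK. Ndufv1, which binds NADH and FMN at the tip of the peripheral arm, had 115 and 143 CPM in MNK-3, 105 in ILC2 and 41.8 in NK. Both MNK-3 libraries exceeded the other 2, and the fitted log2 fold of MNK-3 over NK was 1.59 (SE 0.93, adjusted p = 1.00 in limma voom).

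Several accessory subunits of the membrane arm were low in NK. Ndufb6 had 20.1 and 24.7 CPM in MNK-3, 25.1 in ILC2 and 4.53 in NK, the last from 21 reads; 35.4% of its transcript's 38-base windows also occur in other annotated genes, so its reads are uncertain. Ndufc1 had 34.7 and 41.0 CPM in MNK-3, 37.3 in ILC2 and 10.1 in NK. In each of these the MNK-3 and ILC2 values lay close together and NK lay apart, yet neither passed the test (adjusted p = 1.00 for MNK-3 over NK in limma voom). Ndufb4 differed, with 24.2 and 19.0 CPM in MNK-3, 3.98 in ILC2 and 5.61 in NK. Its reads are also uncertain, with 37.8% of its windows shared. No other counted gene overlaps its exons, whereas 39.0% of the exon bases of Ndufb6 are overlapped, on the other strand. Ndufa6, an accessory subunit of the matrix arm with no shared windows, had 136 and 170 CPM in MNK-3, 79.5 in ILC2 and 72.2 in NK, and was 1.92 times as high in MNK-3 as in ILC2 (log2 fold 0.91, SE 0.42, adjusted p = 0.471).

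Ndufs3 and Ndufs4 were lowest in MNK-3. Ndufs3, a core subunit of the peripheral arm, had 52.9 and 59.4 CPM in MNK-3, 117 in ILC2 and 132 in NK. Both MNK-3 libraries were well under the primary cells, with a log2 fold of -1.26 (SE 0.48, adjusted p = 0.275) over NK and -1.08 (SE 0.41, adjusted p = 0.175) over ILC2. Its share of complex I reads was 2.29% and 2.20% in MNK-3, 4.79% in ILC2 and 8.16% in NK; 48.4% of its windows occur in other annotated genes. Ndufs4, an accessory subunit that supports the NADH-oxidising module, had 48.7 and 55.1 CPM in MNK-3, 96.6 in ILC2 and 75.5 in NK. It had no shared windows, and its share of complex I reads was 2.11% and 2.04% in MNK-3, 3.96% in ILC2 and 4.66% in NK. Neither gene passed the test.

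All 8 complex I assembly factors had a higher mean in MNK-3 than in NK, and 7 of 8 had a higher one than in ILC2. Of the 25283 genes tested, 20098 and 21043 did the same. With medians of ratios the counts were 6 and 4 of 8, and 16640 and 16872 of all genes tested. The factors' median log2 ratios were 0.81 over NK and 0.42 over ILC2. The second became -0.18 with medians of ratios. Under library totals, all genes tested had medians of 0.88 and 1.12, and all genes at 10 CPM or more 0.58 and 0.50. Ndufaf3, which acts early in building the matrix arm, had 40.2 and 33.5 CPM in MNK-3, 10.5 in ILC2 and 6.25 in NK. Its MNK-3 libraries lay above both others, with a log2 fold of 2.56 over NK (SE 3.44, adjusted p = 1.00) that rests on 29 reads in NK. Ndufaf2 was the exception, with 11.0 and 12.1 CPM in MNK-3, 19.8 in ILC2 and 9.92 in NK. Ndufaf7 differed least from NK, with 24.7 and 29.5 CPM in MNK-3, 24.8 in ILC2 and 23.7 in NK.

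In complex II, the 4 subunits did not move together. Sdha, the flavoprotein that oxidises succinate, lies at chr13:74322254-74350280 on the minus strand (GRCm38) and had 118 and 148 CPM in MNK-3 (133 ± 21.2, SD, n = 2), 310 in ILC2 and 241 in NK. Both MNK-3 libraries were below both primary libraries. The log2 fold was -1.25 over ILC2 (SE 0.29, adjusted p = 0.00108 in limma voom) and -0.89 over NK (SE 0.37, adjusted p = 0.444).

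Sdhb, the iron-sulfur subunit, had 95.7 and 115 CPM in MNK-3, 130 in ILC2 and 76.3 in NK. Sdhc, a membrane anchor, had 67.5 and 66.3 CPM in MNK-3, 76.7 in ILC2 and 47.9 in NK, and Sdhd, the other anchor, 58.0 and 70.6 in MNK-3, 67.9 in ILC2 and 41.4 in NK. These 3 were lowest in NK, where Sdha was not. Sdha accounted for 34.8% and 37.1% of complex II reads in MNK-3, 53.0% in ILC2 and 59.2% in NK, with exact 95% intervals of 33.8% to 35.8%, 35.9% to 38.3%, 51.7% to 54.3% and 57.0% to 61.5% in that order of libraries. The MNK-3 shares lay below both others by more than counting error, and no window of the Sdha transcript occurs in another annotated gene. Per kilobase of transcript, the level of Sdha was 40.8 and 51.1 CPM in MNK-3 against 83.8 and 100 for Sdhb, and 83.0 in NK against 66.8 for Sdhb.

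Complex III had the widest spread of log2 ratios over NK (SD 0.95 over 8 members in MNK-3, against 0.70 over all 86). Uqcrq and Uqcr11, small subunits of the complex, were low in NK. Uqcrq had 117 and 155 CPM in MNK-3, 166 in ILC2 and 46.6 in NK. Uqcr11 had 42.7 and 46.8 CPM in MNK-3, 45.9 in ILC2 and 10.6 in NK. For both, NK lay apart from the 3 other libraries; for Uqcrq the log2 fold of ILC2 over NK was 1.83 (SE 0.88, adjusted p = 0.999). Uqcrh, the hinge protein near cytochrome c1, went the other way with 73.7 and 93.6 CPM in MNK-3, 112 in ILC2 and 121 in NK, and made up 13.5% and 14.1% of complex III reads in MNK-3, 13.6% in ILC2 and 26.7% in NK. Uqcrb was also lower in MNK-3, at 20.3 and 25.8 CPM against 37.7 in ILC2 and 34.7 in NK, with 52.6% of its windows shared. Uqcr10 had the highest ratio of the complex over ILC2, with 36.7 and 40.4 CPM in MNK-3, 33.4 in ILC2 and 18.8 in NK.

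Uqcrfs1, the Rieske iron-sulfur protein that passes electrons on to cytochrome c1, lies at chr13:30540308-30545362 on the minus strand (GRCm38). It had 47.0 and 50.9 CPM in MNK-3 (49.0 ± 2.75, SD, n = 2), 126 in ILC2 and 55.0 in NK. ILC2 stood above the rest, and MNK-3 and NK were near each other. The log2 fold of MNK-3 over ILC2 was -1.38 (SE 0.40, adjusted p = 0.0239), that of MNK-3 over NK -0.18 (SE 0.77, adjusted p = 1.00) and that of ILC2 over NK 1.20 (SE 0.80, adjusted p = 0.999). None of its windows occur in another annotated gene. Its share of complex III reads was 8.61% and 7.67% in MNK-3, 15.2% in ILC2 and 12.2% in NK.

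Cycs, the mobile electron carrier, had 30.1 and 27.5 CPM in MNK-3, 50.5 in ILC2 and 35.1 in NK. Both MNK-3 libraries were lower than the primary cells, with a log2 fold of -0.80 over ILC2 (SE 0.57, adjusted p = 0.999). Processed copies are known for this gene, and 30.6% of its windows occur in other annotated genes.

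**Figure D3:**
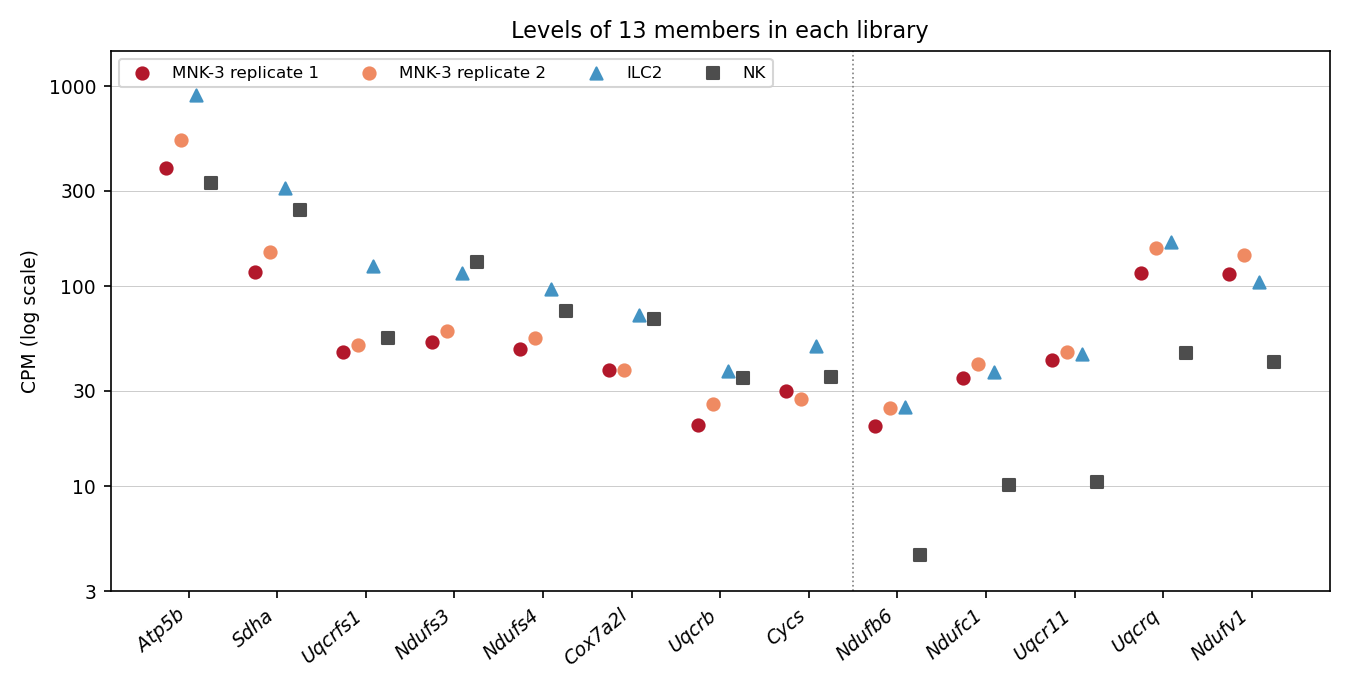
CPM of 13 members in each library on a log scale, with 1 point per library. Left of the dotted line are the called members and members that were lowest in MNK-3. Sdha had 118 and 148 CPM in MNK-3 against 310 in ILC2, whereas the called member Atp5b was lowest in NK. Right of the line are members that were low in NK, such as Ndufb6 at 4.53 CPM.

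In complex IV, cytochrome c oxidase, 12 of 20 members reached 10 CPM. Of the 12, 11 had a higher mean in MNK-3 than in NK (9 with medians of ratios). So did 20098 of the 25283 genes tested (16640 with medians of ratios). For Cox7b and Cox7c, among the 11, the MNK-3 libraries did not both exceed NK. All 12 were higher in ILC2 than in NK, where 52.6% of all genes at 10 CPM or more were. Cox6c, a small subunit, had 173 and 214 CPM in MNK-3, 152 in ILC2 and 117 in NK, and took 17.8% and 17.7% of complex IV reads in MNK-3, 12.4% in ILC2 and 15.2% in NK. Cox5b, which holds a zinc ion on the matrix side, had 88.8 and 106 CPM in MNK-3, 159 in ILC2 and 80.2 in NK, with 29.8% of its windows shared. Cox6c was thus highest in MNK-3 and Cox5b in ILC2; neither passed the test.

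Cox7a2l, known as the factor that joins complexes III and IV into supercomplexes, was the only one of these 12 with a lower mean in MNK-3 than in NK under library totals. It had 38.1 and 38.3 CPM in MNK-3, 71.8 in ILC2 and 69.0 in NK. The MNK-3 libraries lay close together and below both others, with a log2 fold of -0.86 over NK (SE 0.67, adjusted p = 1.00) and -0.91 over ILC2 (SE 0.49, adjusted p = 0.719); 21.8% of its windows are shared. Its paralog Cox7a2, the liver-type subunit, had 73.9 and 92.6 CPM in MNK-3, 69.7 in ILC2 and 26.1 in NK. The share of complex IV reads was 3.91% and 3.17% in MNK-3, 5.87% in ILC2 and 8.96% in NK for Cox7a2l, and 7.59% and 7.67% in MNK-3, 5.70% in ILC2 and 3.39% in NK for Cox7a2.

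The isoforms known from lung, heart, muscle or testis stayed far below their general partners in every library. Per kilobase of transcript, Cox4i1 stood at 187 and 261 CPM in MNK-3, 255 in ILC2 and 173 in NK, and its lung- and hypoxia-linked isoform Cox4i2 at 3.20 and 0.180 in MNK-3, 0.440 in ILC2 and 0.883 in NK. Cox6a1 and Cox8a likewise exceeded Cox6a2 and Cox8b. Cox8c, a testis isoform, had 10 reads and 1 read in MNK-3 and 0 in ILC2 and NK, and Cox7b2 had 4 and 0 reads in MNK-3, 1 in ILC2 and 0 in NK. These low isoforms were higher in MNK-3 replicate 1 than in replicate 2, as were low genes in general.

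Cox7a1, the heart and muscle isoform of the Cox7a subunit, had a smaller gap between the replicates, with 7.42 and 7.05 CPM in MNK-3, 2.04 in ILC2 and 1.72 in NK. Both MNK-3 libraries held it at a like level, from 190 and 107 reads, against 19 reads in ILC2 and 8 in NK. The difference did not pass the test (log2 fold of MNK-3 over NK 2.00, SE 5.32, adjusted p = 1.00). Ndufa4l2, a paralog of Ndufa4 known as a target of hypoxia signalling, had 7.30 and 1.05 CPM in MNK-3, 0.753 in ILC2 and 1.51 in NK, whereas Ndufa4 had 35.5 and 37.2 CPM in MNK-3, 32.0 in ILC2 and 28.2 in NK.

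**Figure D4:**
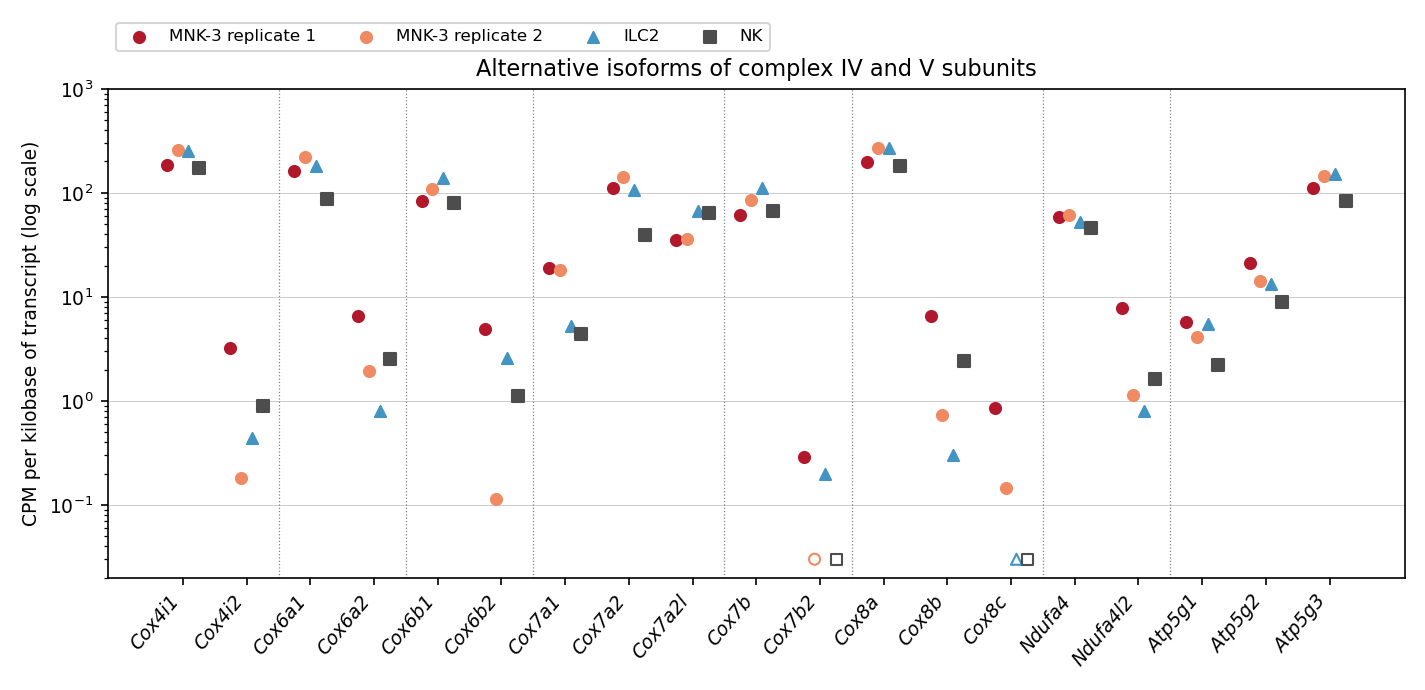
CPM per kilobase of 1 annotated transcript, on a log scale, for alternative isoforms of complex IV and V subunits, with 1 point per library; open symbols at the bottom stand for 0 reads. The general forms (Cox4i1, Cox6a1, Cox6b1, Cox7a2, Cox7b, Cox8a, Ndufa4, Atp5g3) lie well above their alternatives, apart from Cox7a2l. This paralog of Cox7a2 took 8.96% of complex IV reads in NK, against 3.39% for Cox7a2. Cox7a1 is higher in both MNK-3 libraries than in ILC2 and NK.

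In complex V, all 16 subunits had a higher mean in MNK-3 than in NK (15 with medians of ratios). So did 20098 of the 25283 genes tested (16640 with medians of ratios). For Atp5a1, Atp5h, Atp5l and Atp5mpl the MNK-3 libraries did not both exceed NK. The median log2 ratio was 0.51, against 0.58 over all genes at 10 CPM or more. Its spread was the narrowest of the complexes with several members (SD 0.33). The 5 subunits of the catalytic head and central stalk (Atp5a1, Atp5b, Atp5c1, Atp5d and Atp5e) took 19.7% and 21.8% of the reads of the 94 genes in MNK-3, 26.9% in ILC2 and 21.8% in NK. Atp5b, the catalytic beta subunit, lies at chr10:128083273-128090391 on the plus strand (GRCm38) and had 392 and 535 CPM in MNK-3 (463 ± 102, SD, n = 2), 902 in ILC2 and 326 in NK. ILC2 was far above the other libraries. The log2 fold was -1.0 for MNK-3 over ILC2 (SE 0.22, adjusted p = 0.000248), 1.47 for ILC2 over NK (SE 0.34, adjusted p = 0.00269) and 0.46 for MNK-3 over NK (SE 0.32, adjusted p = 1.00).

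Atp5a1, the alpha subunit that alternates with beta in the head, had 531 and 740 CPM in MNK-3, 826 in ILC2 and 560 in NK. NK lay within the range of the MNK-3 pair. Atp5b took 19.1% and 20.5% of complex V reads in MNK-3, 28.5% in ILC2 and 18.4% in NK, and Atp5a1 25.9% and 28.3% in MNK-3, 26.1% in ILC2 and 31.6% in NK. Per kilobase, Atp5b exceeded Atp5a1 in ILC2 alone, at 471 against 334 CPM; in MNK-3 the levels were 204 and 279 for Atp5b against 215 and 300 for Atp5a1, and in NK 170 against 227. Atp5c1, the gamma subunit of the rotor, followed Atp5b in order, with 143 and 185 CPM in MNK-3, 290 in ILC2 and 127 in NK, and did not pass the test (log2 fold of MNK-3 over ILC2 -0.86, SE 0.29, adjusted p = 0.0813). Atp5d, the delta subunit of the central stalk, had the highest ratio of the complex in ILC2 over NK, with 140 and 169 CPM in MNK-3, 210 in ILC2 and 75.7 in NK. Atp5h, a subunit of the peripheral stalk, had the lowest ratio in MNK-3 over NK, with 89.8 and 116 CPM in MNK-3, 71.4 in ILC2 and 95.3 in NK and 55.0% of its windows shared.

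Subunit c of the rotor ring is encoded by 3 genes for the same mature protein. Atp5g3 had 80.6 and 105 CPM in MNK-3, 109 in ILC2 and 60.2 in NK. Atp5g1 had 27.3 and 19.4 CPM in MNK-3, 26.0 in ILC2 and 10.3 in NK, and Atp5g2 15.4 and 10.3 in MNK-3, 9.79 in ILC2 and 6.47 in NK. Per kilobase, Atp5g3 stood at 111 and 145 CPM in MNK-3, 150 in ILC2 and 83.2 in NK and exceeded both others in every library, while 87.6% of the windows of Atp5g2 occur in other annotated genes and the Atp5g1 transcript used for length has 4715 bases. Among members at 10 CPM or more, Atp5l and Atp5s showed the widest gaps within the MNK-3 pair: Atp5l had 30.3 and 8.37 CPM in MNK-3, 7.64 in ILC2 and 11.2 in NK, and Atp5s 19.9 and 4.88 in MNK-3, 3.55 in ILC2 and 2.59 in NK. For Atp5l the high value was in replicate 1 alone and NK exceeded replicate 2, and 85.2% of its windows are shared.

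Within the MNK-3 pair, the log2 ratio of replicate 1 over replicate 2 had a median of -0.22 across the 86 members, with quartiles of -0.34 and -0.03, against -0.02 over 9176 genes at 10 CPM or more in both. Abundant members were thus lower in replicate 1. Over genes at 100 CPM or more in MNK-3 replicate 2 the median was -0.30. That set was chosen on replicate 2 alone, which by itself tends to lower this ratio. In 23 of the 94 genes, over 20% of the transcript's windows occur in other annotated genes; the rest had less, and 35 had none. Of the 3 called members, Sdha and Uqcrfs1 had none and Atp5b had 2.29%. All 4 calls were lost when libraries were scaled by trimmed means or by medians of ratios (adjusted p = 1.00 each), under which both the folds and their SEs were larger. The log2 folds of MNK-3 over ILC2 were then -1.54 (SE 1.19) and -1.78 (SE 1.67) for Sdha, -1.70 (SE 0.98) and -1.92 (SE 1.40) for Uqcrfs1 and -1.29 (SE 1.49) and -1.55 (SE 2.01) for Atp5b. That of Atp5b in ILC2 over NK was 1.81 under both (SE 1.49 and 2.05). With factors from abundant genes, only the call of Atp5b in MNK-3 over ILC2 was left of these 4. Its SE was then 0.022, against 0.22 under library totals, while that of Uqcrfs1 was 1.73. The members' sums in the MNK-3 pair, which gives the SEs, were 7184 and 7164 CPM with these factors. Uqcrfs1 was not called without the filter on low counts (adjusted p = 0.273). In limma trend, Atp5b in MNK-3 over ILC2 was not called (adjusted p = 0.0653) and the other 3 calls were kept. For MNK-3 over NK limma trend called 17 members, 16 higher and 1 lower, and the share of all genes it called is not given here.

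Other mitochondrial genes gave a setting for the members. In the citric acid cycle and pyruvate dehydrogenase list, median log2 ratios over 19 genes were 0.91 in MNK-3 over NK, -0.01 in MNK-3 over ILC2 and 0.64 in ILC2 over NK. Mdh2, malate dehydrogenase, fell relative to ILC2, with 206 and 268 CPM in MNK-3 and 497 in ILC2 (log2 fold -1.11, SE 0.25, adjusted p = 0.000733), as did Pdha1 (adjusted p = 0.0149); 2 of 19 were called lower and 0 higher. Of all genes tested in limma voom, 2.37% were called lower in MNK-3 than in ILC2 and 0.902% higher. Mdh2 was also called higher in ILC2 than in NK (0.479% of all genes tested). The 78 mitochondrial ribosomal proteins had medians of 0.83, 0.15 and 0.74 in the same order of comparisons, with 1, Mrpl45, called lower in MNK-3 than in ILC2; the median over ILC2 became -0.21 with trimmed means.

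The 20 general mitochondrial markers had medians of 0.67 in MNK-3 over NK, -0.40 in MNK-3 over ILC2 and 1.15 in ILC2 over NK. Relative to ILC2, 6 of 20 were called lower in MNK-3 (2.37% of all genes tested) and 0 higher (0.902%). The 6 were the chaperones Hspd1, Hspe1 and Hspa9 and the phosphate and adenine nucleotide carriers Slc25a3, Slc25a4 and Slc25a5. Slc25a5 had 86.7 and 116 CPM in MNK-3, 283 in ILC2 and 115 in NK. Hspa9 was also called higher in ILC2 than in NK (0.479% of all genes tested). The 41 assembly factors beyond the Ndufaf genes had medians of 0.88, 0.57 and 0.28 in the same order of comparisons, with 0 calls in each in limma voom (1 higher in ILC2 over NK at an unadjusted p under 0.05). The 10 other subunits and carriers of the chain had 0.85, 0.35 and 0.75, also with 0 calls (1 higher in MNK-3 over ILC2 and 1 lower in ILC2 over NK at an unadjusted p under 0.05). With medians of ratios the medians over ILC2 became -0.04 and -0.23.

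Of the 18 regulators of mitochondrial biogenesis, 0 were called in any comparison in limma voom (1 higher in MNK-3 over ILC2 at an unadjusted p under 0.05), with medians of 0.76, 0.57 and 0.18; the second became -0.17 with medians of ratios. Nrf1 itself had 108 and 93.0 CPM in MNK-3, 67.0 in ILC2 and 93.4 in NK. Tfam, which packages and transcribes mitochondrial DNA, had 123 and 129 CPM in MNK-3, 62.1 in ILC2 and 64.9 in NK. Ppargc1a, the coactivator PGC-1 alpha, was low throughout, at 3.51 and 0 CPM in MNK-3, 0.108 in ILC2 and 7.12 in NK. Under library totals, ILC2 was thus lowest for Nrf1 and near NK for Tfam, and the members' summed level was highest in ILC2. Any part of these regulators in the members' levels was not tested.

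In the hypoxia and oxidative stress list, 6 of 12 genes were called lower in MNK-3 than in ILC2 (2.37% of all genes tested) and 0 higher (0.902%). Bnip3, a mitophagy receptor induced in low oxygen, had 16.1 and 18.3 CPM in MNK-3, 179 in ILC2 and 6.68 in NK, with a log2 fold of -3.41 over ILC2 (SE 0.50, adjusted p = 1.61e-09). Hif1a, Egln1, Egln3, Pdk1 and Ucp2 were the other 5. Ucp2, an inner membrane carrier of the uncoupling protein family, was also called lower than in NK (2.04% of all genes tested). Its levels were 214 and 243 CPM in MNK-3, 795 in ILC2 and 617 in NK. These high levels in ILC2 stood beside the members' highest sum in ILC2; their part in it was not tested. With trimmed means, 2 of these 6 calls over ILC2 were left, Bnip3 and Egln3, and with medians of ratios 1, Egln3; under both scalings 0 calls were left in the citric acid cycle, ribosomal protein and marker lists. Limma trend called more genes in MNK-3 over NK. Higher were 13 of the 78 ribosomal proteins, 7 of the 41 assembly factors, 6 of the 19 citric acid cycle genes and 4 of the 20 markers. So were 3 of the 10 other subunits and carriers, 3 of the 18 regulators and 2 of the 12 hypoxia and stress genes, with 1 of the last list lower. The share of all genes called by limma trend is not given here, so these counts cannot be read as particular to the lists.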

How the data were processed

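Total RNA (integrity numbers above 9) was made into stranded total RNA libraries with a SMARTer Pico kit and sequenced as pairs of 38 bp reads, per the labels' protocols. Per the submitters' processing notes, STAR 2.7.8a and HTSeq were used with mm10/GRCm38; the gene set and the strand setting are not given in the sources used here. The deposited values, of a unit recorded as other, are the authors' whole-number read counts per gene, not normalized. MNK-3 was counted over 31053 genes, ILC2 and NK over 53465, and the 30731 genes in all tables were used. Entries that name no gene held 76.5% and 26.6% of reads in MNK-3, 25.9% in ILC2 and 49.3% in NK, and were left out.

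CPM were computed with each library's total over the shared genes. All 4 libraries entered 1 limma voom fit of 3 groups (limma 3.58.1, R 4.3.3), in which only the MNK-3 pair gives a residual degree of freedom. The estimate for the prior degrees of freedom was infinite, and each SE thus follows the spread pooled over genes of like abundance and not the gene's own. A filter (10 counts scaled to library size, total of 15) left 25283 genes. Tests were two-sided, adjusted by Benjamini-Hochberg over all genes tested, with a call at 0.05. The fit was tested on simulated data. With 1 library each for ILC2 and NK, their spread was assumed equal to that of MNK-3. Log2 ratios were taken after adding 0.5 CPM, on the mean of both MNK-3 libraries, which understates changes of low genes. Lengths and shared 38-base windows came from 1 GENCODE M21 transcript per gene.

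The rule for members reads symbols only, but it and the gene lists were chosen with earlier results of these data known. Every member was counted; values are given for called members, for the highest and lowest ratio in each complex, for tissue-linked isoforms with their partners, for complex II and cytochrome c, and for the most abundant member per kilobase. Other members were named after their values were seen. Alternatives were other library scalings, no filter, limma trend, only the libraries compared, other added CPM, leaving out each MNK-3 library, members with at most 20% shared windows and subunits only; the last 2 were chosen after seeing the data.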

Additional observations from a re-analysis of the deposited data

How the results depend on the processing

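Each of the 4 calls depends on the library scaling; with TMM or median-of-ratios factors the folds of these calls were larger and so were their SEs. With TMM or median-of-ratios factors, 0 members were called for MNK-3 over ILC2 and 0 for ILC2 over NK, and 0 for ILC2 over NK also with abundant-gene factors. Limma trend called 17 members for MNK-3 over NK and 8 for ILC2 over NK, and the shares of all genes it called are not given here. The median log2 ratio of the members for MNK-3 over NK was 0.53 with TMM, 0.33 with median-of-ratios and 0.66 with abundant-gene factors, 0.71 and 0.55 after adding 0.1 and 2 CPM, 0.61 at 10 CPM or more, 0.63 with at most 20% shared windows and 0.59 for subunits only. For MNK-3 over ILC2 it was -0.36 with TMM and -0.57 with median-of-ratios factors. For ILC2 over NK it was 1.01 with TMM and 1.01 with median-of-ratios factors, 0.69 with abundant-gene factors, 0.70 and 0.59 after adding 0.1 and 2 CPM, 0.72 at 10 CPM or more and 0.71 with at most 20% shared windows. In MNK-3 over NK, median-of-ratios factors gave 15 members 2-fold higher and 3 lower. In MNK-3 over ILC2, 2 were higher with either TMM or median-of-ratios factors, and 12 and 21 lower. In ILC2 over NK, 47 were higher with either. The shares of all genes at 2-fold or more under these scalings are not given here. Over all genes tested, the median log2 ratio with TMM and median-of-ratios factors was 0.68 and 0.39 for MNK-3 over NK. It was 0.77 and 0.53 for MNK-3 over ILC2, and -0.05 with both for ILC2 over NK. The causes of these changes were not tested.

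Leaving out 1 MNK-3 library leaves no residual degrees of freedom, so it gives values and no test. The median log2 ratio over NK was then 0.63 to 0.64, the members 2-fold lower numbered 1 to 2 against NK and 2 to 6 against ILC2. Medians of complex I, of its assembly factors and of 4 other lists in MNK-3 over ILC2 turned negative with TMM or median-of-ratios factors; the median over all members and the folds of the called members kept their direction. No paired analysis was possible because ILC2 and NK have 1 library each, so no 2 replicate numbers are shared between groups. Depth limits the low isoforms and, in NK, members such as Ndufb6, with 21 reads.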
